A study of Mus musculus with 6 samples.

Results

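The genes described here encode splicing factors and RNA helicases, with the cleavage and polyadenylation factors that process the 3′ ends of the same transcripts. They were taken by name from the deposited table of KYSE30 cells, as the protein-coding genes of the SRSF, SF3, HNRNP, SNRP, DDX, DHX, PRPF, LSM, RBM, U2AF, CPSF and CSTF series that the table does not assign to a transcription factor family. The rule used no measured value and found 68 genes of the 4195 in the table. No CSTF gene was among them. KYSE30 is an established human line of esophageal squamous cell carcinoma, labelled as wild type in both groups and grown in medium with fetal bovine serum. The ACh group held 3 samples exposed to 100 uM ACh for 4 h, and the Control group held 3 samples of the same line and time, for which the labels name no vehicle. Total RNA was made into mRNA sequencing libraries, and the comparison asks which transcripts differed after ACh. The labels do not say whether the 3 samples of a group came from separate cultures, so the p-values reflect only how these samples vary, and that variation may be technical.

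The splicing machine is built on each intron from small nuclear ribonucleoproteins (snRNPs). The U1 snRNP reads the 5′ splice site, U2AF and the U2 snRNP read the 3′ splice site and branch point, and the U4/U6.U5 tri-snRNP then joins. ATP-driven helicases of the DDX and DHX families remodel these assemblies. SR proteins mostly promote and hnRNP proteins often repress the use of an exon, and other members of the helicase families act in ribosome assembly, translation, RNA decay and the sensing of viral RNA. Several SR proteins and SF3B1 are studied in cancer for their amplification or mutation.

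Each value is a normalised read count that the authors obtained by dividing a library by a single factor. The table lists only genes with an unadjusted p under 0.05 in the authors' comparison, and a splicing gene outside it was not analysed here: the role lists used below hold 191 names, of which 68 were listed. A gene is said to have risen or fallen where both the Benjamini-Hochberg adjusted p from limma and the authors' deposited adjusted p were under 0.05. By that rule 52 of the 68 genes differed, 20 higher and 32 lower in ACh, and 16 did not pass. Over all listed genes 63.8% passed, with 28.8% higher and 35% lower, in a table selected on the same contrast. By limma alone 66 of the 68 genes passed, against 99.6% of all listed genes. The share higher among the 68 genes, 29.4%, was close to the 28.8% of all listed genes, and the share lower was 47.1%. In such bulk samples fewer cells of a kind and less RNA per cell cannot be told apart. The changes were small, between -0.28 and 0.38 on the log2 scale, with a median of -0.12 against -0.10 over all listed genes. In 64 of the 68 genes the 3 ACh values and the 3 Control values did not overlap, the exceptions being LSM12, RBM10, DDX11 and DDX5, while 93% of all listed genes did not overlap.

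Direction followed base composition. GC content was read from mouse transcripts matched by symbol, since no human sequence was at hand, and 66 of the 68 genes had a match. Genes higher in ACh had a median GC content of 43.8%, and genes lower in ACh one of 56.0%, whether or not they passed the tests. The Spearman correlation between GC content and the log2 fold change was -0.79 across the 66 genes and -0.76 across the 3676 listed genes with a value. These are descriptions across genes, which share the same 6 libraries. Ordered by GC content, the 22 genes at the low end lay at or under 45.2%, and 21 of them were higher in ACh, with HNRNPD lower. In the middle, between 45.5% and 55.2%, 8 were higher and 14 lower, and at the high end, between 55.4% and 62.2%, all 22 were lower. In the same ranges of GC content as these genes 96.9%, 49.3% and 1.08% of all listed genes were higher in ACh. When a smooth trend of each library on GC content was removed, 5 of the 51 differing genes that had a GC value passed both tests with the same sign, 20 kept the sign without passing, and 26 changed sign. The 5 were HNRNPD, PRPF31, HNRNPAB, HNRNPM and PRPF19, all lower in ACh, while no gene passed as higher. Of the 2460 differing listed genes with a GC value, 321 passed with the same sign, 1275 kept the sign without passing, and 864 changed sign. Among these 864, 32 passed with the changed sign. Over all 3676 listed genes with a GC value, differing or not, 9.6% passed both tests after this step, 3.86% higher and 5.74% lower. The authors' adjusted p was left as deposited here, so no gene beyond those already called could pass. By limma alone 9 of the 66 genes passed after the step, all lower, with SF3B5, LSM12, HNRNPK and DDX5 among them. Of the 3676 listed genes 234 passed as higher and 325 as lower by limma alone. What the relation to GC content reflects was not tested, and each change below is given on the deposited scale unless the removal of the GC trend is named.

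**Figure D1:**
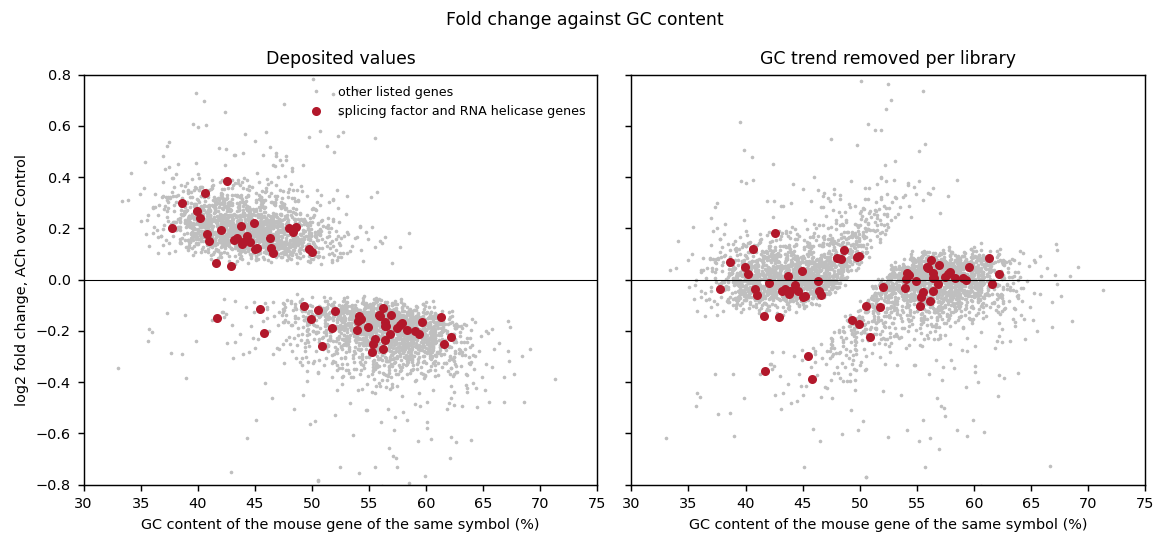
Log2 fold change of ACh over Control against GC content (%), read from mouse transcripts matched by symbol, before (left) and after (right) a smooth GC trend was removed from each library. Red points are the 66 splicing factor and helicase genes with a value and grey points the other listed genes. Before removal the red points run from above 0 at low GC content to below 0 at high GC content (Spearman -0.79), and after removal they scatter around 0 (0.21). Few grey points lie near 0 on the left because the table holds only genes selected by p.

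**Figure D2:**
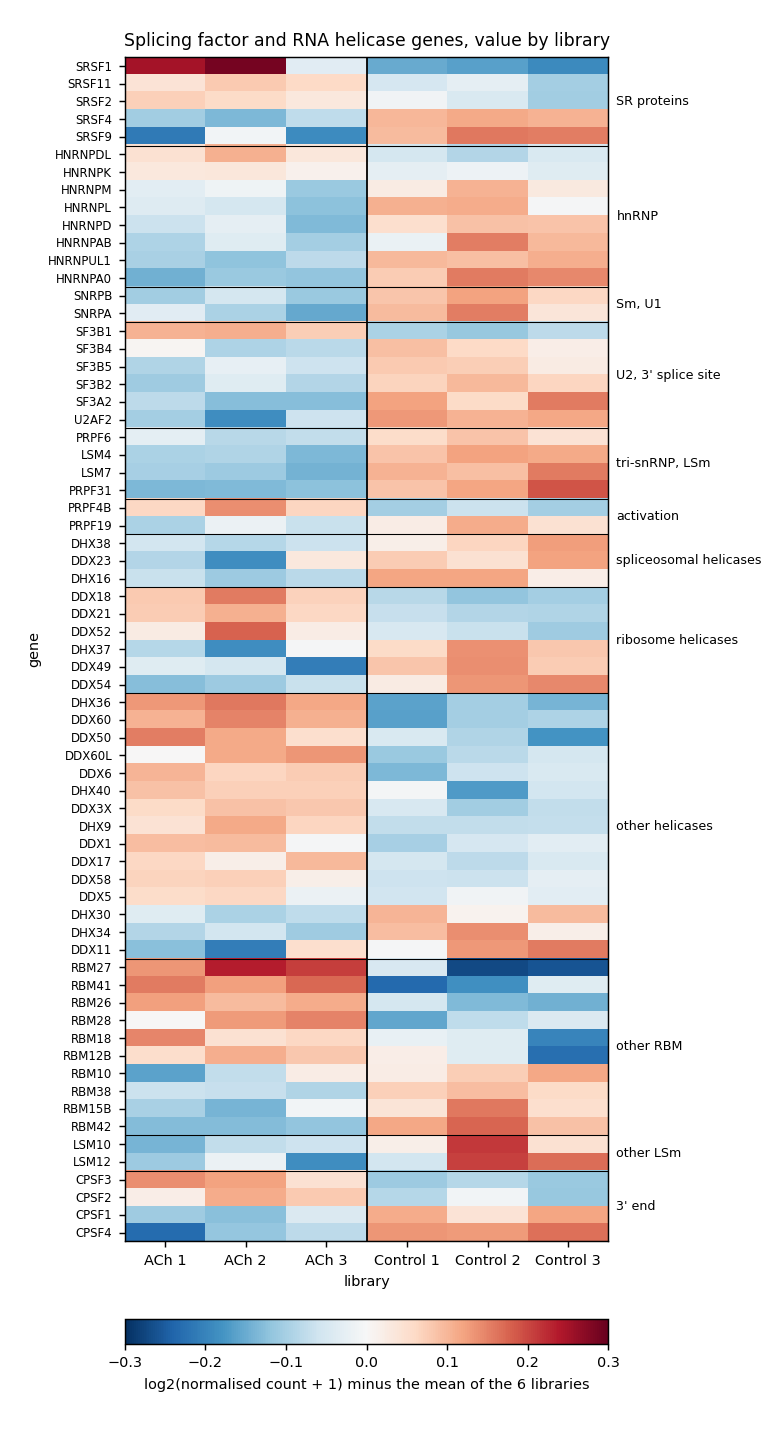
Value of 67 of the genes in each of the 6 libraries, as log2(normalised count + 1) minus the mean of the 6 libraries, ordered by role (rows) with the ACh libraries to the left of the Control libraries. The ACh and Control sides of a row take opposite colours in nearly every gene, and all but LSM12, RBM10, DDX11 and DDX5 have no overlap between the groups.

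SR proteins, which bind exonic enhancers and recruit U1 and U2AF, moved in both directions. All 5 listed of 12 passed, SRSF1, SRSF11 and SRSF2 higher and SRSF9 and SRSF4 lower. SRSF1 (ENSG00000136450, chromosome 17, 58003360 to 58007346 in the file's human coordinates, whose build is not given in the sources used here), the founding SR protein and a proto-oncogene in several tumours, had 2405, 2466 and 1975 normalised counts in the ACh libraries, against 1820, 1806 and 1772 in the Control libraries. The third ACh library lay well below the other two and still above every Control library. Its mean was 2282 ± 268 in ACh and 1799 ± 24.7 in Control (SD, n = 3 each). The log2 fold change was 0.34 ± 0.06 (SE, limma adjusted p 7.36e-05) and lay between 0.28 and 0.44 when any single library was left out. SRSF9, an SR protein with a short arginine and serine tail, had 2525, 2910 and 2567 normalised counts in ACh, against 3126, 3263 and 3253 in Control. All 3 ACh values lay below all Control values, and the log2 fold change was -0.27 ± 0.04 (SE, limma adjusted p 4.78e-05). SRSF4 averaged 1686 ± 34.6 in ACh and 1951 ± 10.5 in Control (SD, n = 3 each), and SRSF11 averaged 4220 ± 55.4 in ACh and 3886 ± 102 in Control. SRSF1 stood at 0.856 ± 0.0919 of SRSF9 in ACh and at 0.560 ± 0.0196 in Control, a ratio given as a description, since the pair was chosen for its opposite directions. None of the 5 passed once the GC trend was removed, SRSF1 being at 0.12 and SRSF9 at -0.08, and SRSF11 turned to -0.07.

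The hnRNP proteins, which coat nascent transcripts and shape exon choice and stability, were mostly lower in ACh: 6 of the 8 listed fell, HNRNPDL rose and HNRNPK did not pass. HNRNPA0, a binder of AU-rich elements in mRNA, had 7800, 7988 and 7942 normalised counts in ACh, against 9099, 9608 and 9526 in Control. The gap between the groups was larger than the range within either, and the log2 fold change was -0.25 ± 0.03 (SE, limma adjusted p 6.04e-06). HNRNPUL1, a relative of the nuclear scaffold protein hnRNP U, fell by 0.20 on the log2 scale, to 8134 ± 115 in ACh against 9332 ± 64.2 in Control. It overlaps TGFB1 on the opposite strand by 6012 bases, and no source used here says that reads were counted by strand, so reads of the pair cannot be told apart. HNRNPD, also known as AUF1 and a regulator of AU-rich mRNA decay, had 5040, 5173 and 4802 normalised counts in ACh, against 5456, 5600 and 5586 in Control. Its ACh values lay below every Control value although its GC content, 41.7%, was in the range where 96.9% of listed genes were higher. The log2 fold change was -0.15 ± 0.03 on the deposited scale and -0.36 with the GC trend removed (limma adjusted p 4e-08). With libraries scaled to equal totals over the listed genes, themselves selected by p, it was -0.07 and no longer passed (limma adjusted p 0.0631). HNRNPDL, its paralog nearby on chromosome 4 (82422564 to 82430408, with HNRNPD at 82352498 to 82374503), went the other way, at 4620 ± 126 in ACh and 4237 ± 65.9 in Control, but turned to -0.04 with the GC trend removed. HNRNPAB averaged 7302 ± 180 in ACh and 8129 ± 494 in Control (SD, n = 3 each), and HNRNPM averaged 9244 ± 334 in ACh and 9936 ± 308 in Control. Both passed with the GC trend removed, HNRNPAB at -0.17 and HNRNPM at -0.16, and both lost the call with equal totals, at -0.07 and -0.02. HNRNPL, a binder of CA repeats, lost it as well (limma adjusted p 0.107). HNRNPK, a binder of C-rich RNA and the gene with the highest mean count of the 68, had 14646, 14654 and 14457 normalised counts in ACh, against 14064, 14163 and 13970 in Control. The groups did not overlap, but the difference of 0.05 on the log2 scale did not pass (limma adjusted p 0.117). The gene shares sequence with processed pseudogenes, 1 of them in the table, so its count is uncertain.

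Among the genes of the Sm ring and the U1 snRNP at the 5′ splice site, SNRPB and SNRPA fell. SNRPB, which encodes the Sm protein B of the ring shared by most spliceosomal snRNPs, had 4525, 4692 and 4500 normalised counts in ACh, against 5156, 5287 and 5079 in Control. SNRPA, a protein of the U1 snRNP itself, averaged 1849 ± 76.8 in ACh and 2109 ± 86.7 in Control. The groups did not overlap in either gene, and SNRPB fell by 0.18 and SNRPA by 0.19 on the log2 scale. Both changed sign with the GC trend removed, SNRPB to 0.02 and SNRPA to 0.01, without passing.

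Among the 6 listed genes of the U2 snRNP and 3′ splice site recognition, SF3B1 rose, U2AF2, SF3A2, SF3B2 and SF3B4 fell, and SF3B5 did not pass. SF3B1, the U2 subunit that holds the branch point and is recurrently mutated in cancer, lies on chromosome 2 (197389784 to 197435091). It had 11484, 11518 and 11241 normalised counts in ACh, against 9989, 9863 and 10110 in Control, with every ACh value above every Control value. The log2 fold change was 0.19 ± 0.03 (SE, limma adjusted p 5.1e-05). U2AF2, the large U2AF subunit that binds the polypyrimidine tract, had 5332, 5026 and 5481 normalised counts in ACh, against 6265, 6152 and 6206 in Control, a log2 fold change of -0.23 ± 0.03 (limma adjusted p 1.8e-05). The ratio of SF3B1 to U2AF2 was 2.05 to 2.29 in the ACh libraries and 1.59 to 1.63 in the Control libraries. The pair was chosen for its opposite directions, so this separation is a description. SF3A2, a subunit of the SF3a complex, averaged 1165 ± 22.5 in ACh and 1360 ± 46.7 in Control (SD, n = 3 each). It shares 1201 bases with PLEKHJ1 on the opposite strand, itself at -0.31. After removal of the GC trend SF3B1 was at -0.01, U2AF2 at -0.05 and SF3A2 at 0.02, none of them past the tests. SF3B4, which contacts the pre-mRNA near the branch point, lost its call with equal totals (limma adjusted p 0.403), and it turned to 0.08 with the GC trend removed.

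All 4 listed genes of the tri-snRNP and its LSm ring fell. PRPF31, which holds the U4/U6 and U5 snRNPs together and is mutated in inherited retinal degeneration, had 1403, 1406 and 1415 normalised counts in ACh, against 1635, 1673 and 1756 in Control. The ACh libraries were nearly equal to one another and all below the Control libraries, and the log2 fold change was -0.26 ± 0.04 (SE, limma adjusted p 4.13e-05). It remained at -0.23 with the GC trend removed (limma adjusted p 0.00028) and at -0.18 with equal totals (limma adjusted p 0.00117). Of the 51 differing genes with a GC value it was the only one that kept its call under every alternative processing run. It overlaps TFPT on the opposite strand by 266 bases, and TFPT averaged 158 in ACh and 200 in Control. LSM7 and LSM4, subunits of the rings that bind U6 RNA in the nucleus and decaying mRNA in the cytoplasm, both fell, LSM7 to 1486 ± 22.5 in ACh against 1747 ± 42 in Control, and LSM4 to 3586 ± 62.5 in ACh against 4159 ± 52.7 in Control. PRPF6, which bridges the U5 and U4/U6 particles, was at -0.12 and lost the call with equal totals (limma adjusted p 0.276). These 3 did not pass with the GC trend removed.

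Of the factors that activate the assembled spliceosome, PRPF4B, a kinase that phosphorylates tri-snRNP proteins, averaged 1680 ± 52.1 in ACh and 1484 ± 23.3 in Control (SD, n = 3 each) and rose by 0.18 on the log2 scale. PRPF19, the ubiquitin ligase at the heart of the complex that bears its name, had 3263, 3441 and 3325 normalised counts in ACh, against 3540, 3765 and 3595 in Control, and fell by 0.12. PRPF19 passed with the GC trend removed (-0.10, limma adjusted p 0.0333) but not with equal totals (-0.04), while PRPF4B turned to -0.04 with the GC trend removed. The 3 listed spliceosomal helicases all fell. DHX16, which catalyses the first remodelling of the activated spliceosome, averaged 1849 ± 27.2 in ACh and 2083 ± 80.9 in Control. DDX23, which releases U1 from the 5′ splice site, averaged 2034 ± 155 in ACh and 2272 ± 59.3 in Control, and DHX38, which acts between the catalytic steps, averaged 1874 ± 20.8 in ACh and 2062 ± 76.8 in Control. Their log2 fold changes were between -0.17 and -0.14. With equal totals DDX23 and DHX38 lost the call (limma adjusted p 0.128 and 0.203), and with the GC trend removed they lay between 0.00 and 0.06.

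**Figure D3:**
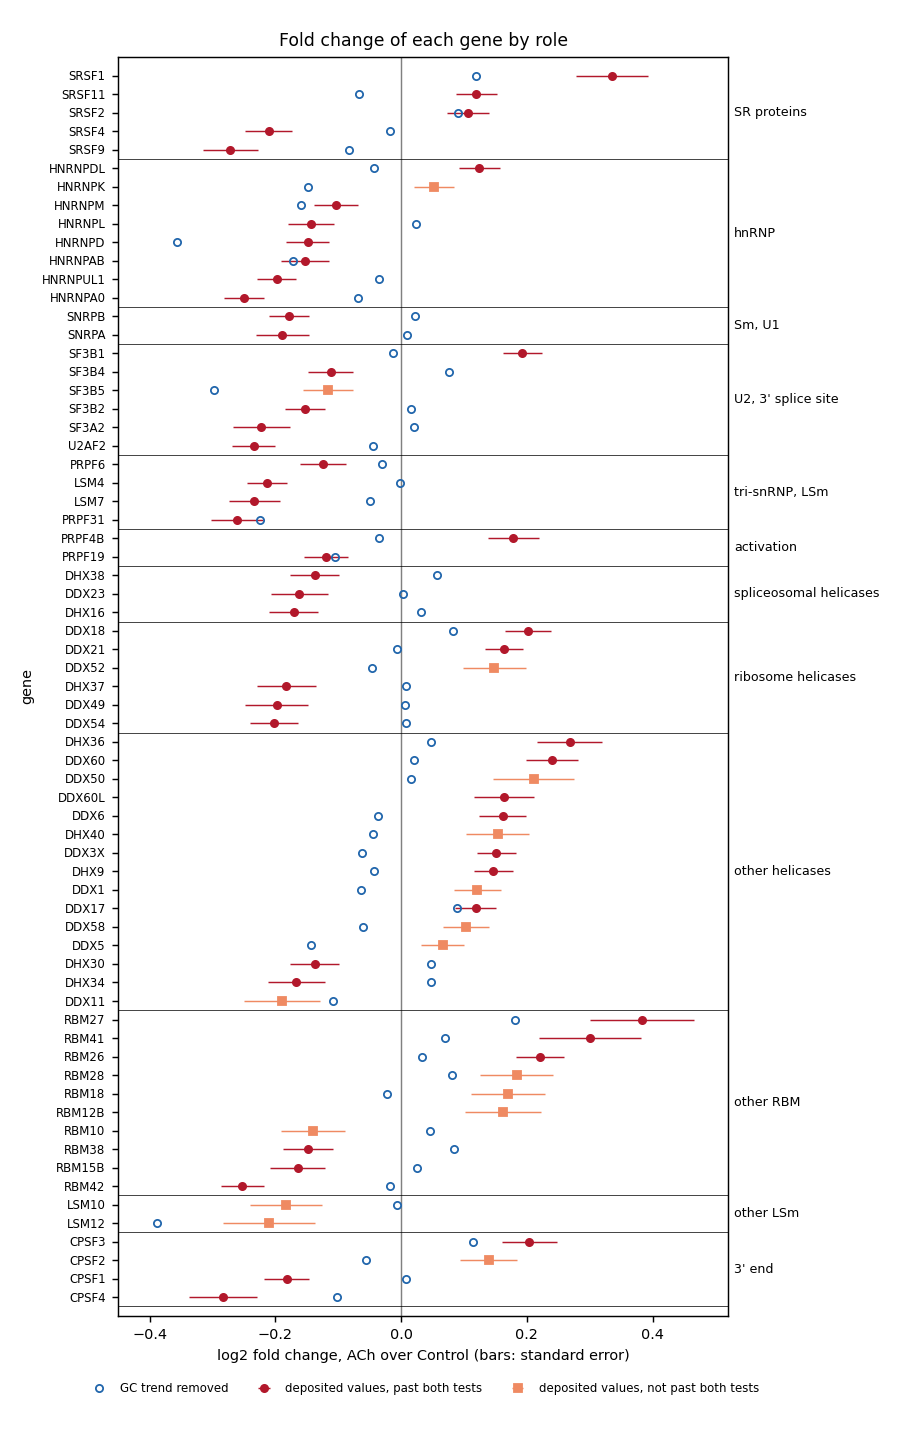
Log2 fold change of ACh over Control for 67 of the genes, grouped by role, with bars for the standard error of the limma fit. Filled red circles passed both tests, orange squares did not, and open blue circles are the same genes with the GC trend removed. The 4 tri-snRNP genes and the 3 spliceosomal helicases all lie left of 0, most of the other RNA helicases lie right of 0, and the blue circles lie nearer to 0 in most genes, with LSM12 (-0.39), HNRNPD (-0.36), SF3B5 (-0.30) and PRPF31 (-0.23) farthest left and RBM27 (0.18), SRSF1 (0.12) and CPSF3 (0.11) farthest right.

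Of the 15 listed RNA helicases outside the spliceosome and ribosome assembly 7 rose, 2 fell and 6 did not pass, with a median log2 fold change of 0.15. DHX36, which unwinds G-quadruplexes in DNA and RNA, had 925, 944 and 917 normalised counts in ACh, against 757, 788 and 768 in Control, a log2 fold change of 0.27 ± 0.05 (SE, limma adjusted p 0.000231). Every ACh library lay well above every Control library. DHX9, an abundant nuclear helicase, averaged 7136 ± 177 in ACh and 6445 ± 3.93 in Control. DDX3X, a helicase of translation initiation, averaged 6482 ± 71.2 in ACh and 5837 ± 113 in Control. These and DDX6, a translational repressor of P-bodies (0.16 on the log2 scale), and DDX17, a cofactor of transcription and splicing (0.12), all rose. The interferon-inducible DDX60 averaged 1676 ± 30.5 in ACh and 1419 ± 37.7 in Control, and its neighbour on chromosome 4, DDX60L, averaged 1275 ± 61.8 in ACh and 1137 ± 23 in Control. DDX58, which encodes the viral RNA sensor RIG-I, was at 0.10 and did not pass. DHX34, a factor of nonsense-mediated decay, and DHX30, which acts at the mitochondrial ribosome, fell, to log2 fold changes of -0.17 and -0.14. Both lost the call with equal totals and turned to 0.05 with the GC trend removed, and none of the 7 risen helicases passed then, DDX60L having no GC value.

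DDX5, the paralog of DDX17 and the gene with the second highest mean count, had 13130, 13198 and 12490 normalised counts in ACh, against 12159, 12557 and 12361 in Control. The third ACh library lay inside the Control range, and the gene did not pass (log2 fold change 0.07, limma adjusted p 0.0638). DDX11, a helicase of sister chromatid cohesion that acts on DNA, had 992, 937 and 1120 normalised counts in ACh, against 1080, 1184 and 1206 in Control, so that the groups overlapped. It has near-identical copies in the genome, and its counts are uncertain for that reason. DDX50, the nucleolar paralog of DDX21, averaged 642 ± 23.4 in ACh and 555 ± 25.8 in Control without overlap, and missed the call only in the authors' deposited table, where its adjusted p was 0.0524. In the same way 14 of the 16 genes that did not pass had a limma adjusted p under 0.05, and HNRNPK and DDX5 were the exceptions.

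The 6 listed helicases of ribosome assembly split by direction, DDX18 and DDX21 higher, DDX54, DDX49 and DHX37 lower, and DDX52 not past the tests. DDX18, a nucleolar helicase, had 2415, 2548 and 2399 normalised counts in ACh, against 2161, 2108 and 2130 in Control. DDX21, which acts in ribosomal RNA transcription and processing, had 5869, 5994 and 5812 normalised counts in ACh, against 5310, 5238 and 5229 in Control. Neither gene overlapped between groups, and they rose by 0.20 and 0.16 on the log2 scale. DDX54 averaged 2596 ± 56.7 in ACh and 2988 ± 135 in Control, and DDX49 averaged 1145 ± 73.8 in ACh and 1312 ± 32.3 in Control (SD, n = 3 each). DHX37 lost its call with equal totals (limma adjusted p 0.0593). The 5 that had passed lay, with the GC trend removed, between -0.01 and 0.08.

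The RNA-binding motif (RBM) genes included the largest rise. Of 10 listed outside the spliceosome lists, RBM27, RBM41 and RBM26 rose, RBM42, RBM15B and RBM38 fell, and 4 did not pass. RBM27, which like its paralog RBM26 links nuclear polyadenylated RNA to the exosome, had 396, 425 and 417 normalised counts in ACh, against 349, 299 and 302 in Control. It had the largest log2 fold change of the 68 genes, 0.38 ± 0.08 (SE, limma adjusted p 0.000538), at the second lowest mean count, and one Control library stood nearer to the ACh libraries than the others did. RBM41 was at a like level, 389 ± 7.03 in ACh and 316 ± 22.8 in Control, and RBM26 was at 2142 ± 21.4 in ACh and 1839 ± 65 in Control. RBM42 had 2744, 2746 and 2767 normalised counts in ACh, against 3257, 3392 and 3194 in Control, and fell by 0.25. RBM15B, a subunit of the writer complex of N6-methyladenosine, and RBM38, a p53-induced regulator of mRNA stability, fell by 0.16 and 0.15 and lost the call with equal totals. RBM28, a nucleolar protein, averaged 848 ± 46.3 in ACh and 746 ± 29.9 in Control without passing. None of the 9 with a GC value passed with the GC trend removed, where RBM27 was at 0.18. RBM18, RBM12B and RBM10 each overlap a listed gene on the opposite strand.

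The LSm genes outside the U6 ring did not pass. LSM12 had 537, 572 and 509 normalised counts in ACh, against 558, 669 and 651 in Control, and one ACh library lay inside the Control range. LSM10, a subunit of the U7 particle that matures histone mRNA, averaged 841 ± 24.7 in ACh and 957 ± 70.9 in Control.

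The cleavage and polyadenylation specificity factor (CPSF) had 4 of its subunits in the table, with opposite directions. CPSF3, the endonuclease that cuts the transcript, had 1437, 1420 and 1348 normalised counts in ACh, against 1210, 1231 and 1208 in Control, and rose by 0.20 ± 0.04 (SE, limma adjusted p 0.000536). CPSF4, which binds the polyadenylation signal, had 747, 809 and 830 normalised counts in ACh, against 960, 958 and 984 in Control. It had the largest fall of the 68 genes, -0.28 ± 0.05 (SE, limma adjusted p 0.000212), and shares 8897 bases with ATP5MF on the opposite strand. ATP5MF averaged 1705 in ACh and 1883 in Control, and as for HNRNPUL1 the reads of the pair cannot be told apart. CPSF1, the scaffold subunit of the factor, averaged 2766 ± 82.5 in ACh and 3138 ± 91.7 in Control, and CPSF2, the inactive partner of the endonuclease, averaged 1459 ± 46.7 in ACh and 1325 ± 51.6 in Control without passing. On the scale with the GC trend removed CPSF3 was at 0.11, CPSF4 at -0.10 and CPSF1 at 0.01, none past the tests.

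**Figure D4:**
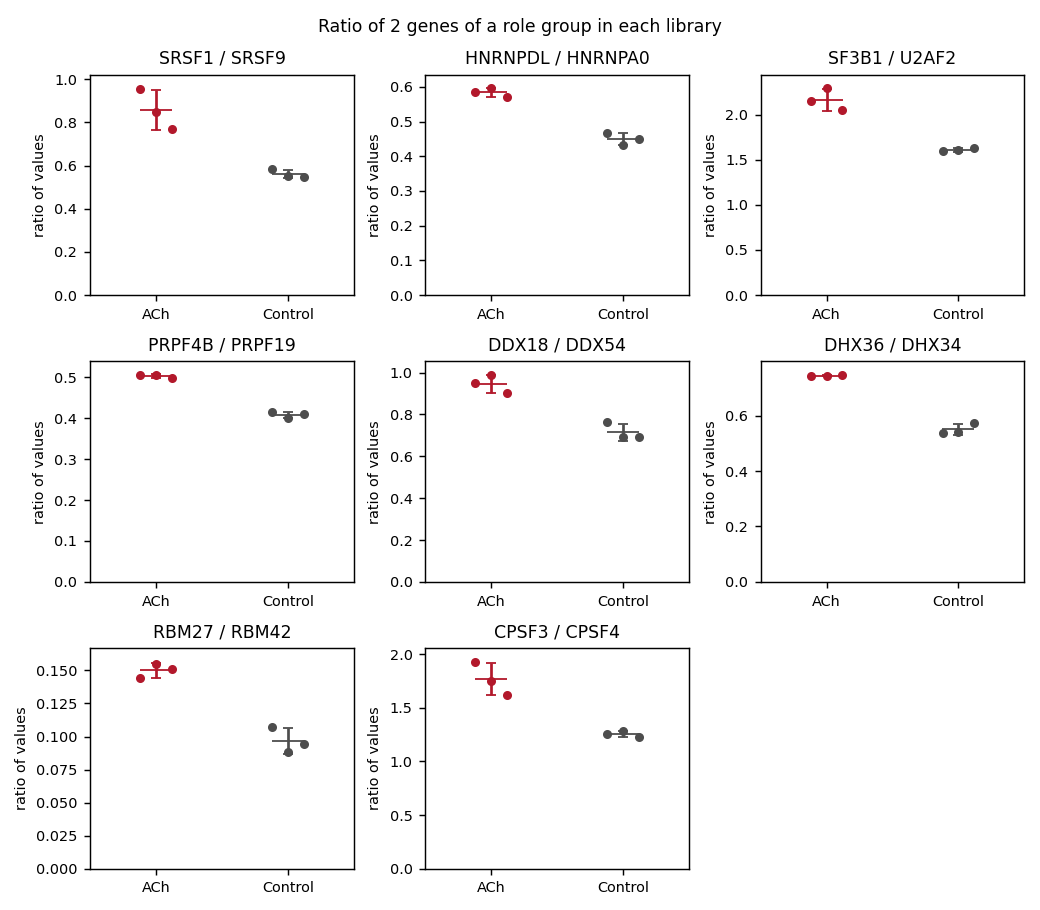
Ratio of the normalised counts of 2 genes of one role group in each library, ACh to the left of Control, with the mean and SD of 3 libraries. Each pair joins a gene that was higher to one that was lower, so the separation is a description: SRSF1 over SRSF9 averaged 0.856 in ACh and 0.560 in Control, and CPSF3 over CPSF4 averaged 1.77 in ACh and 1.26 in Control.

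Ratios between genes of one role were formed in each library, where the scaling of the library cancels. RBM27 over RBM42 averaged 0.150 ± 0.00541 in ACh and 0.0967 ± 0.0097 in Control (SD, n = 3 each), and DHX36 over DHX34 averaged 0.744 ± 0.00264 in ACh and 0.551 ± 0.0199 in Control. PRPF4B over PRPF19 averaged 0.503 ± 0.00496 in ACh and 0.409 ± 0.00702 in Control. In each of these pairs all ACh libraries lay above all Control libraries. The choice of genes fixed this, since each pair joins a risen to a fallen gene, both without overlap. The log2 differences of the 3 ratios were 0.64, 0.44 and 0.30, and with the GC trend removed they were 0.20, 0.00 and 0.07.

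Levels per kilobase of gene length, as the file gives the length, ran over a wide range while the differences between groups stayed small. SNRPB led with 3813 normalised counts per kb as the mean of 6 libraries, followed by HNRNPAB at 3599, HNRNPK at 2801 and SF3B5 at 2515. RBM28 was lowest at 50.2, with RBM27 at 55.5, RBM41 at 57.8 and DHX36 at 80.5. Members of one family lay far apart: the helicase DDX5 was at 1712 and DDX60L at 99.2. RBM42 was at 1368 and RBM28 at 50.2, and HNRNPAB was at 3599 and HNRNPL at 639. The 68 genes together made up 2.06 to 2.08% of the listed signal in the ACh libraries and 1.97 to 2.02% in the Control libraries. Their summed counts were nonetheless lower in ACh, 217713 to 221852 against 222577 to 226060 in Control. The sum of all listed genes was lower too, 1.05e+07 to 1.07e+07 in ACh and 1.11e+07 to 1.15e+07 in Control.

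**Figure D5:**
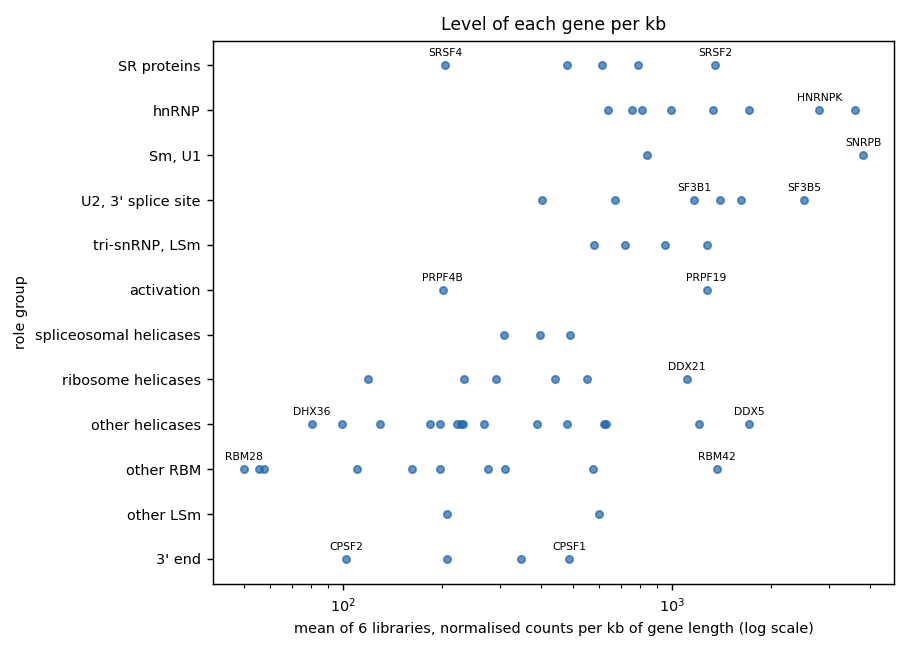
Level of 67 of the genes as the mean of 6 libraries in normalised counts per kb of gene length (log axis), by role group. SNRPB, HNRNPAB, HNRNPK and SF3B5 lie farthest right, from 2515 to 3813, and RBM28, RBM27, RBM41 and DHX36 farthest left, from 50.2 to 80.5.

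Chromosome and length, which the naming rule did not use, also went with direction. Of the 12 genes on chromosome 19, which is rich in GC, none was higher in ACh, against 32 of the 406 listed genes on that chromosome. Gene length was longer in the genes higher in ACh, with a median of 7388 bases, than in those lower in ACh, with 4008 bases, and over all listed genes these medians were 6745 and 4062 bases. The part that GC content has in these patterns was not tested. The table lists genes by their difference between the groups, so the absence of a marker does not show that it was not expressed. Of the squamous and epithelial markers looked up, 6 of 12 were in the table (TP63, SOX2, KRT15, KRT8, KRT18 and DSG3), KRT8 at 49746 to 50383 normalised counts in ACh and 58743 to 64023 in Control. These shares therefore do not check the identity of the line. The table held 1 of 6 fibroblast, 1 of 6 immune and 1 of 5 endothelial markers, namely COL1A1 (133 to 147 in ACh and 146 to 193 in Control), LAPTM5 (31.1 to 48.2 in ACh and 17.7 to 21.3 in Control) and EGFL7 (818 to 970 in ACh and 1052 to 1081 in Control), and their part in the results was not tested.

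Other genes of RNA processing, taken from lists of 176 names of which 67 were in the table, were described by the same rule. Of these 25 rose, 25 fell and 17 did not pass, with a median log2 fold change of 0.09. Among the SR protein kinases CLK1, which phosphorylates SR proteins in the nucleus, averaged 702 ± 5.31 in ACh and 562 ± 12.4 in Control, and CDK11B averaged 918 ± 45.1 in ACh and 1090 ± 41.3 in Control (SD, n = 3 each). SNRNP70, the U1-70K protein, averaged 4886 ± 125 in ACh and 5921 ± 132 in Control, in the same direction as SNRPA and SNRPB. In 3′ end processing NUDT21, the cleavage factor subunit that governs the choice of polyadenylation site, averaged 3515 ± 184 in ACh and 3039 ± 44.3 in Control. PABPN1, the nuclear poly(A) binding protein, averaged 1341 ± 24.9 in ACh and 1764 ± 160 in Control, the largest fall of the named genes at -0.39, and it passed with the GC trend removed (-0.20). The splicing regulators PTBP3 and RBMXL1 rose by 0.28 and 0.31 on the log2 scale, and PCBP1 and KHSRP fell by 0.26 and 0.24. RBMXL1 shares 13498 bases with KYAT3 on the same strand. The helicases HELZ and MTREX, of which MTREX serves the nuclear exosome, rose by 0.26 each. In the fit without the GC trend 2 of these genes passed as higher, COIL, the coilin of Cajal bodies, at 0.25 and RBMXL1 at 0.23, and 6 as lower. Of these 6, 1 gene, SYNCRIP (-0.11), had been called higher on the deposited scale (0.14).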

How the data were processed

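RNA sequencing of 6 KYSE30 libraries, 3 ACh and 3 Control, was read from one table of the whole series. The labels name mouse as organism, and the submitters' processing notes name Bowtie 0.12.2 with builds mm8 and mm10, but 4183 of the 4195 gene IDs start with ENSG. The deposited values are a signal, normalised counts obtained by dividing each library by a single factor, as the values themselves show: within a library each is a multiple of the same step, to a tolerance of 0.1 steps. Library depth is unknown, since the table lists only genes with the authors' deposited p-value under 0.05. The deposited log2 fold changes were not used.

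Values were tested on log2(value + 1) with limma 3.58.1 (trend, R 4.3.3) over all 4195 genes, the group being the only term, with Benjamini-Hochberg adjustment. A fold change on this scale understates that of low genes. The GC trend was removed by a loess of span 0.3 on the GC content of the longest coding transcript in mouse (GENCODE M21), matched by symbol. Named genes were those of the largest change per role and direction among genes past both tests without overlap, with the highest and lowest levels and the largest not past the tests. Other genes are named to account for each group and were chosen after their values were seen. Genes and lists were chosen with earlier results of these data known. Of the set 1 gene is counted in the totals and not reported here. The fit was tested on simulated data. Other pseudocounts, filters, scalings, a replicate block and single left-out libraries were tried.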

Additional observations from a re-analysis of the deposited data

How the results depend on the processing

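The counts of 20 higher and 32 lower genes stayed at 20 and 32 with a pseudocount of 0.1, with the replicate block, and in each fit that left out a library, where the median log2 fold change ran from -0.12 to -0.11. The authors' adjusted p alone gave 20 and 32, and no setting recomputed it. Limma alone passed 66 of the 68 genes, so these settings could add no call and had little room to lose one. With the lowest 25% of mean values left out, RBM27 and RBM41 were not tested and the counts were 18 and 32. Without single libraries the other RNA processing genes ranged over 25 to 25 higher and 24 to 25 lower (median 0.065 to 0.10), and all listed genes over 1192 to 1205 higher and 1453 to 1465 lower (median -0.097 to -0.085). The equal totals were those of the listed genes, selected by p in this contrast, and not of whole libraries, whose depth is unknown. With equal totals, which raise all log2 fold changes by about 0.08, 18 of the 68 genes passed as lower and the median was -0.038. The 14 lost calls were all of lower genes, and 52.6% of the calls were then higher, against 38.5% on the deposited scale; over all listed genes these shares were 54.9% and 45.1%, with 990 lower in place of 1470. The other RNA processing genes then had 14 lower (median 0.17), and the median of all listed genes was -0.018. With the GC trend removed the 68 genes had 0 higher and 5 lower (median -0.0096), with 0 higher and 9 lower by limma alone, the other RNA processing genes 2 and 6 (median 0.0037), and all listed genes 142 and 211 (median 0.0024). With the replicate block and the GC trend removed together the counts were 5 and 5, 3 and 8, and 213 and 270, with the same medians, and 1 of the 5 higher genes, SF3B4 (0.08), was a gene called lower on the deposited scale. By limma alone 29 of the 68 genes were higher and 37 lower, and of all listed genes 2014 were higher and 2164 lower. The GC removal turned the sign of 35 of the 66 genes, 26 of them called. Over all listed genes it did so for 864 of the 2460 called genes with a GC value. Among the genes named by rule, other RNA processing genes included, it did so for CPSF1 (0.0076), DDX21 (-0.0061), DDX23 (0.0028), DDX49 (0.0068), DDX5 (-0.14), DDX54 (0.0075), DHX16 (0.031), DHX30 (0.048), DHX34 (0.047), HNRNPDL (-0.043), HNRNPK (-0.15), MOV10 (0.043), PAPOLA (-0.0050), PRPF4B (-0.036), RBM15B (0.025), SF3A2 (0.020), SF3B1 (-0.013), SNRPA (0.0089), SNRPB (0.022) and SRSF11 (-0.067). The cause was not tested. Each gene's group mean was subtracted from its log2 values, and the remainders were compared between ACh and Control libraries. These remainders correlated at 0.082, 0.056 and 0.047 in same-numbered libraries, and at -0.069 to 0.017 in differently numbered ones. The main fit did not pair the libraries, and whether they were paired was not tested further. On the deposited scale the block left the counts unchanged, but the authors' adjusted p was not recomputed there. With the GC trend removed the block added calls, as given above.

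The GC values are of mouse genes, and the table holds few genes near 0. Of the 5 calls that remained, 4 lie at a GC content of 49.3% to 50.9%, where the removal moved values by -0.05 to 0.04 on the log2 scale. A planned count test was not run, because fewer than 100 low values in each Control library were at hand to recover reads.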

Other observations

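The name pattern also matched 8 listed genes that are not protein-coding, 7 of them processed pseudogenes and 1 antisense gene. All 8 were higher in ACh and 1 passed both tests, HNRNPKP4, at 161 ± 12.5 in ACh and 120 ± 10.5 in Control (SD, n = 3 each), while its parent HNRNPK did not pass. LSM12P1 averaged 329 ± 55.9 in ACh and 213 ± 69.3 in Control, whereas LSM12 was lower in ACh. Neither of these genes passed both tests, and in each the groups overlapped. DDX39B-AS1 was listed at 0 in all 3 Control libraries. Of all 135 listed pseudogenes 90 were higher and 35 passed. Where a pseudogene shares reads with its parent, both values are uncertain.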
